A study of Mus musculus with 6 samples.

Results

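Kainate receptors are tetrameric glutamate-gated cation channels, found on both sides of cortical and hippocampal synapses, where they carry slow excitatory currents and tune transmitter release. The pore is built from GluK1, GluK2 and GluK3, which can form channels alone, and from GluK4 and GluK5, which bind agonist with high affinity and need a GluK1, GluK2 or GluK3 partner to work. NETO1 and NETO2 are single-pass membrane proteins that attach to these channels, slow their gating and help to deliver them to synapses. The 7 genes described here are the 5 pore subunit genes (Grik1 to Grik5) and the 2 auxiliary subunit genes (Neto1 and Neto2). They were picked by gene symbol from the 18160 genes of the deposited table. The rule uses no measured value, but the family was proposed with earlier results of these data known.

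Prefrontal cortex RNA was sequenced from 3 samples of Cyfip2 heterozygotes (HET) and 3 of wild-type mice (WT), all on the C57BL/6J background and 56 days old. CYFIP2 is a subunit of the WAVE complex, which drives branched actin assembly. The labels give neither the kind of Cyfip2 mutation nor the sex of the animals, and nothing in them says that each sample is a different animal. The p-values therefore measure only the spread between these samples, which may be technical. The tissue is bulk cortex, so fewer cells of a type and less RNA per cell cannot be told apart.

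All 6 columns were of similar size, at 36.4 to 37.1 M normalized counts in total, and the lowest values implied about 27.1 to 48.2 M assigned reads per sample. Cyfip2, the check of the labels, had 28356, 28578 and 29567 normalized counts in HET samples, against 45454, 43174 and 45627 in WT samples. Its log2 fold change was -0.63 ± 0.05 (SE; adjusted p = 0.0027 by limma-trend, a moderated linear model on log2 values fitted to all genes). Markers of cortical excitatory neurons (6 of 6) and interneurons (12 of 12) all passed the filter on low values (a mean of at least 10), as the tissue label would have it. No marker list was at 0, and the lists for astrocytes, oligodendrocytes, microglia, vessels, meninges and red blood cells were present too. Of the single samples, WT sample 2 was high in oligodendrocyte and striatal markers, WT sample 3 was high in upper-layer and low in deep-layer markers, and WT sample 1 was low in astrocyte, endothelial and meningeal markers. Members are therefore also given without each of these samples.

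The 5 pore subunits are paralogues, and their closest similarity bears on whether reads can be assigned to the right gene. The stretch shown is the coding sequence of the pore loop around the codon of the Q/R site, printed because it shows how alike the paralogues are and because this codon, in Grik1 and Grik2 of mammals, is recoded in the RNA by adenosine deamination. Each line gives 63 bases of the mRNA strand, 5′ to 3′, from the GENCODE M21 transcript with the longest coding sequence, with the glutamine codon of that site in capitals.
Grik1: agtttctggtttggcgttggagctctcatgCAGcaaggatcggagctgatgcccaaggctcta
Grik2: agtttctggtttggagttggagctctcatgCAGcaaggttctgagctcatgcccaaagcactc
Grik3: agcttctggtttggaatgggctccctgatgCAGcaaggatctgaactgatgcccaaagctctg
Grik4: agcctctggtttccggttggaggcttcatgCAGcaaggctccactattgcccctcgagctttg
Grik5: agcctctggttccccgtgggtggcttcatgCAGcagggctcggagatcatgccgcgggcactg
The codon is the same in all 5 genes. Grik1 and Grik2 were alike at 56 of the 63 bases, both were alike with Grik3 at 51, and Grik4 and Grik5 were alike at 46. Across these 2 sets the likeness was lower, at 38 or 39 bases for Grik4 and 41 to 44 for Grik5 against Grik1, Grik2 and Grik3. On GRCm38 the Grik1 codon lies in exon 13 of 18 on the minus strand of chromosome 16 (87940542 to 87940544). The Grik2 codon lies in exon 13 of 17 on the minus strand of chromosome 10 (49244329 to 49244331).

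Little of any whole transcript was shared letter for letter. Of all stretches of 31 bases in the annotated transcripts of each pore subunit gene, between 0.0739% (Grik1) and 0.25% (Grik5) also occurred in another member. Between 0.724% and 0.957% occurred in transcripts of some gene outside the family. Neto1 shared 0.0717% with other members and 0.179% with genes outside the family, while Neto2 shared none with either. Gene-level values do not show which splice form was made or whether the Q/R codon was recoded.

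Levels of different genes were compared per length, as normalized counts per kilobase of the longest annotated transcript, over all 6 samples. Grik5, the GluK5 gene, stood far above the rest at 2332 (range 2179 to 2435). Grik3 followed at 402 (365 to 430.4) and Neto2 at 359 (322 to 411), and these neighbours overlapped. Neto1 was next at 251 (229 to 307.5), then Grik2 at 173.5 (157 to 194) and Grik4 at 147 (134 to 163), of which Grik2 and Grik4 overlapped. Grik1, the GluK1 gene, was lowest at 85.5 (77.1 to 97.0). By plain normalized count Grik5 ranked 649th and Grik1 10301st among the 15151 genes tested. These are levels and carry no test.

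**Figure D1:**
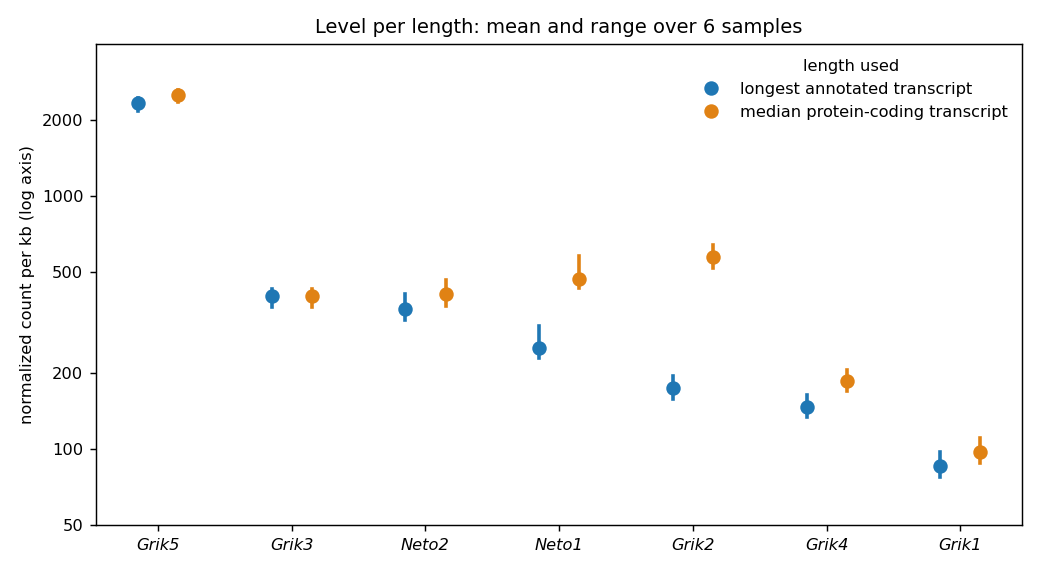
Normalized counts per kilobase (log axis) of the 7 genes, ordered by level on the longest annotated transcript; points are means and lines the range over all 6 samples, for 2 choices of transcript length. Grik5 was highest and Grik1 lowest with both lengths, while Grik2 stood at 173.5 with the longest transcript and at 575 with the median protein-coding transcript.

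The middle of this order rests on the length used. Grik2 has 11 annotated transcripts, the longest of 9427 bases, while the median of its protein-coding transcripts is 2846.5 bases. With that median length Grik2 stood in the second place at 575 per kilobase, above Neto1 (472), Neto2 (408) and Grik3 (402). Grik5, Grik4 and Grik1 kept the first, sixth and last place with both lengths. Which 3′ ends the Grik2 reads cover is not shown by gene-level values.

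None of the 7 members passed an adjusted p of 0.05 between HET and WT. Over all genes tested, 0.0132% passed (2 of 15151), with 0.0066% higher in HET and 0.0066% lower in HET. The estimates of 3 members lay above WT and of 4 below, with a median log2 fold change of -0.03 against 0.002 over all genes. The clearest separation was in Grik1, whose HET values all lay above the WT values, and Grik2 was above WT on average without passing the test. The other 5 members were within 5% of the WT level by their estimates.

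**Figure D2:**
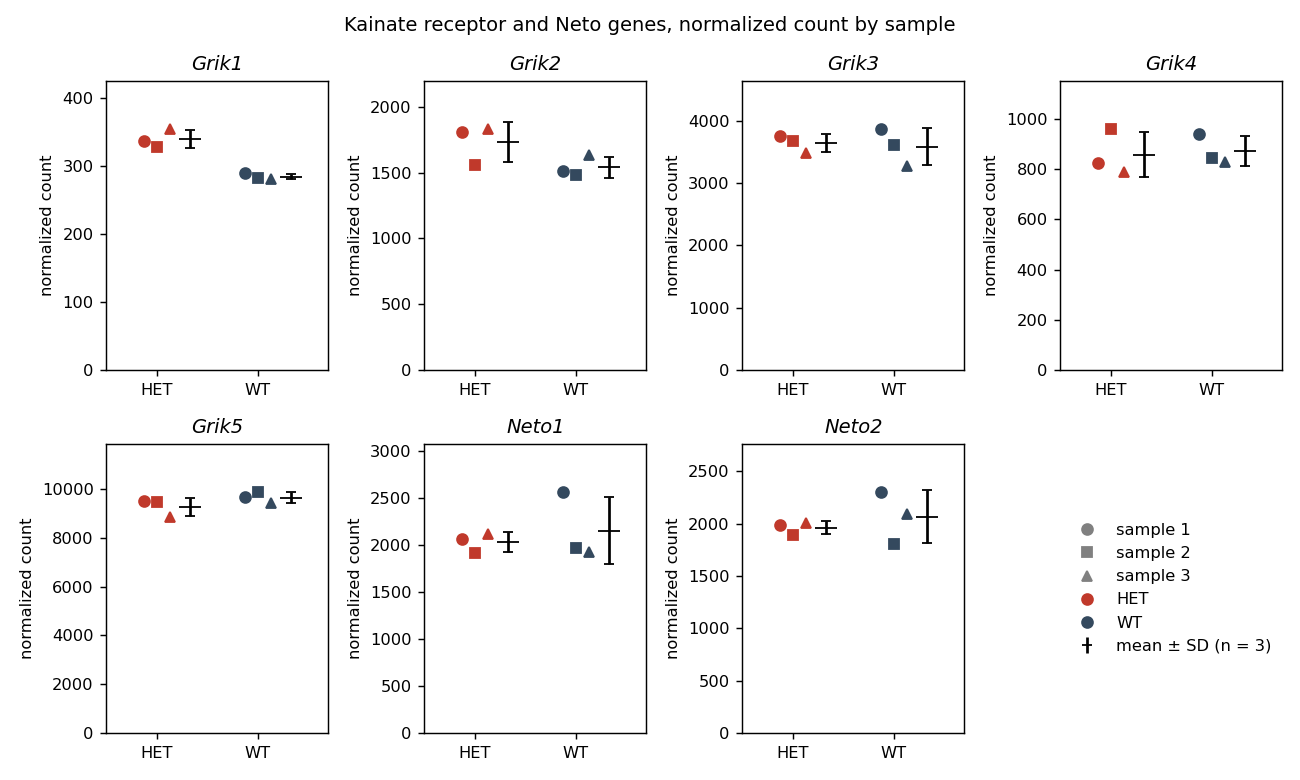
Normalized count of each member in each sample (HET left, WT right, y axes from 0), with the mean ± SD of 3 samples beside the points. The 3 HET points of Grik1 lie above its 3 WT points; in the other panels the genotypes overlap, and WT sample 1 is the highest point for Neto1 and Neto2.

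Grik1 encodes GluK1, which in rodent cortex and hippocampus is known from GABAergic interneurons. Its normalized count was 337.5, 328 and 354.7 in HET samples, against 289.8, 283.4 and 281.9 in WT samples. The groups did not overlap, and the lowest HET sample lay 38.2 above the highest WT sample. All 3 HET samples above all 3 WT samples was found for 1 of the 7 members and for 5.15% of all genes tested. Grik1 averaged 340 ± 13.5 in HET and 285 ± 4.21 in WT (SD, n = 3 each), which put HET at 119% of WT with a 95% interval of 104% to 136%. By limma-trend this was 0.25 ± 0.09 (SE) on the log2 scale (unadjusted p = 0.016, adjusted p = 0.91). With all 6 samples it was the only member of 7 with an unadjusted p under 0.05, where 5.07% of all genes tested stood in either direction and 2.36% with a higher level in HET. By p it ranked 251st of all genes tested. The exact two-sided permutation test gave p = 0.1, the smallest that 3 against 3 samples allow.

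Grik1 was also the member with the fewest reads, an estimated 207 in WT sample 3 and up to 378 in WT sample 1. Counting error alone gives an SD of about 19.0 in HET and 16.7 in WT samples, which is larger than the observed SD of 13.5 and 4.21. The closeness of the WT values is therefore tighter than their depth would give on average. The difference of 55.0 normalized counts between the means stands beside counting errors of 11 for the HET mean and 9.63 for the WT mean. These figures take the most common value of a read in each sample, so they are estimates and cover counting error only. Leaving out each sample in turn left the log2 fold change between 0.22 and 0.28, and the unadjusted limma-trend p was 0.062 without HET sample 3.

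Grik2 encodes GluK2, the most widely used pore subunit of brain kainate receptors. Its normalized count was 1805, 1559.6 and 1829 in HET samples, against 1508.5, 1479 and 1632 in WT samples. HET samples 1 and 3 stood above all WT samples, while HET sample 2 lay below WT sample 3. Grik2 averaged 1731 ± 149 in HET and 1539.7 ± 81.0 in WT (SD, n = 3 each), with a log2 fold change of 0.17 and a 95% interval of -0.0044 to 0.34 (unadjusted p = 0.055, adjusted p = 0.95 by limma-trend). By limma-trend the log2 fold change was 0.24 without HET sample 2 (adjusted p = 0.99, unadjusted p = 0.0095). It was 0.21 without WT sample 3 (adjusted p = 1.00, unadjusted p = 0.038 by limma-trend) and 0.13 without HET sample 3.

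Grik3 encodes GluK3, which responds only to high glutamate concentrations and is known from presynaptic sites. Its normalized count was 3754, 3676.5 and 3474 in HET samples, against 3862, 3615 and 3274 in WT samples. The WT samples spanned the whole HET range. The log2 fold change was 0.02 (95% interval -0.13 to 0.18; adjusted p = 0.99 by limma-trend). It was -0.04 without WT sample 3, the sample with low deep-layer markers, and -0.00065 without HET sample 1.

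The high-affinity subunits showed no separation of the genotypes. Grik4, the GluK4 gene, had 822.3, 957.5 and 789.4 normalized counts in HET samples, against 938.6, 844 and 828.6 in WT samples. HET sample 2 was the highest and HET sample 3 the lowest of all 6. The log2 fold change was -0.03 (95% interval -0.23 to 0.17), and it was 0.03 without WT sample 1, 0.03 without HET sample 3, 0.00058 without HET sample 1 and -0.11 without HET sample 2. Grik5 had 9522, 9475.5 and 8851 normalized counts in HET samples, against 9664, 9887 and 9417 in WT samples. Only HET sample 3 lay below every WT sample. Grik5 averaged 9283 ± 375 in HET and 9656 ± 235 in WT (SD, n = 3 each), a log2 fold change of -0.06 with a 95% interval of -0.17 to 0.06. For this most abundant member the interval runs from 88.8% to 104% of WT, the narrowest of the family.

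For both auxiliary subunits the sign of the estimate turned on WT sample 1. Neto1, whose product also binds NMDA receptors in mouse hippocampus, had 2071, 1916 and 2117 normalized counts in HET samples, against 2568, 1968 and 1929 in WT samples. WT sample 1 was the highest of all 6, and the other WT samples lay within the HET range. The log2 fold change was -0.07 (95% interval -0.30 to 0.16; adjusted p = 0.99 by limma-trend), and it turned to 0.06 without WT sample 1. The value was -0.03 without HET sample 2, -0.13 without WT sample 2 and -0.15 without WT sample 3. Neto2, whose product also binds the potassium chloride cotransporter KCC2 in mouse neurons, had 1986, 1890.5 and 2004.5 normalized counts in HET samples, against 2304, 1807.5 and 2094 in WT samples. The WT samples lay on both sides of the HET range. The log2 fold change was -0.07 (95% interval -0.26 to 0.12, unadjusted p = 0.42, adjusted p = 0.98 by limma-trend). It was 0.01 without WT sample 1 (unadjusted p = 0.90 by limma-trend). Without WT sample 2 it was -0.16 (unadjusted p = 0.039, adjusted p = 0.68 by limma-trend). With any other sample left out the unadjusted limma-trend p lay between 0.41 and 0.66. In both genes the WT samples were the more variable, with an SD of 358 for Neto1 and 249 for Neto2, against 105 and 61.2 in HET samples.

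**Figure D3:**
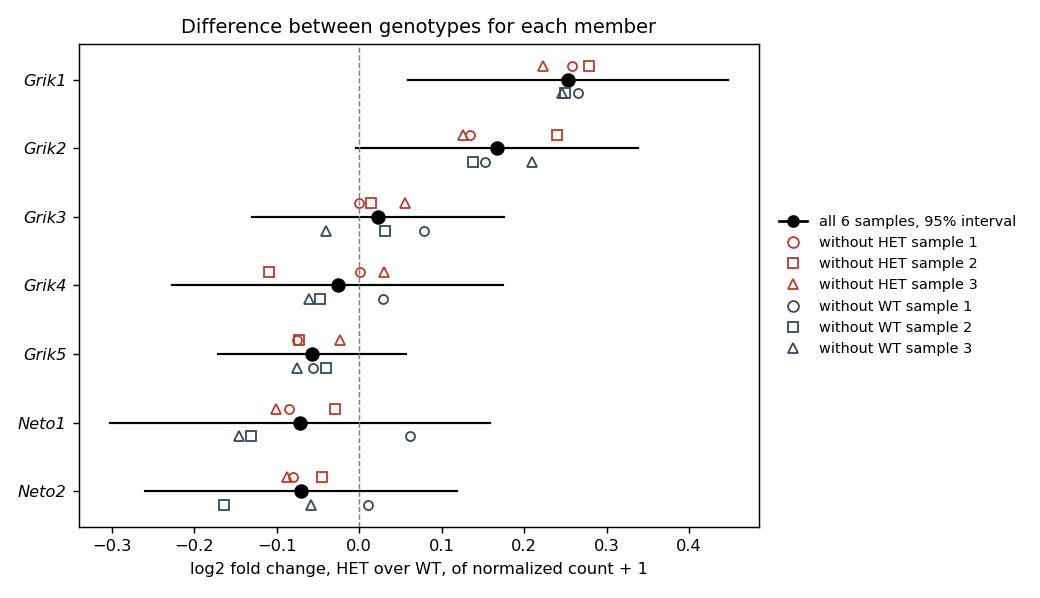
Log2 fold change (HET over WT, normalized count + 1) of each member with its 95% interval from limma-trend (filled points), and the value with each sample left out (open points). Grik1 stays between 0.22 and 0.28 and Grik2 between 0.13 and 0.24, while Grik3, Grik4, Neto1 and Neto2 have values on both sides of 0.

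The make-up of the pore subunit pool was described within each sample, per kilobase of the longest transcript, with no test since the members were chosen with results of these data known. The summed level of Grik1 to Grik5 was 3187, 3161 and 2992 in HET samples, against 3209, 3215 and 3075 in WT samples, and the genotypes overlapped. Grik5 made up 73.6%, 73.8% and 72.8% of that sum in HET samples, against 74.2%, 75.7% and 75.4% in WT samples. Grik1 made up 2.90%, 2.84% and 3.24% in HET samples, against 2.47%, 2.41% and 2.51% in WT samples. The shares of Grik5 were thus all lower and those of Grik1 all higher in HET, though the closest Grik5 shares were 73.8% in HET and 74.2% in WT. With the median protein-coding lengths Grik5 took 64.2% to 66.6% in HET and 67.2% to 68.8% in WT. Those lengths reweight the same counts, so they are no separate check. Shares of a sum also depend on each other, and the normalized counts of Grik5 itself overlapped between the genotypes. How often other shares would separate the genotypes was not tested. The shares of Grik2, Grik3 and Grik4 overlapped. The log2 ratio of Grik5 to Grik2 also overlapped, at 3.61, 3.82 and 3.49 in HET samples, against 3.89, 3.96 and 3.74 in WT samples. The share of Grik4 plus Grik5, most of it Grik5, was 77.3% to 79.0% in HET and 79.1% to 80.2% in WT. This ratio and this joint share were planned measures, while the shares of single genes were not.

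**Figure D4:**
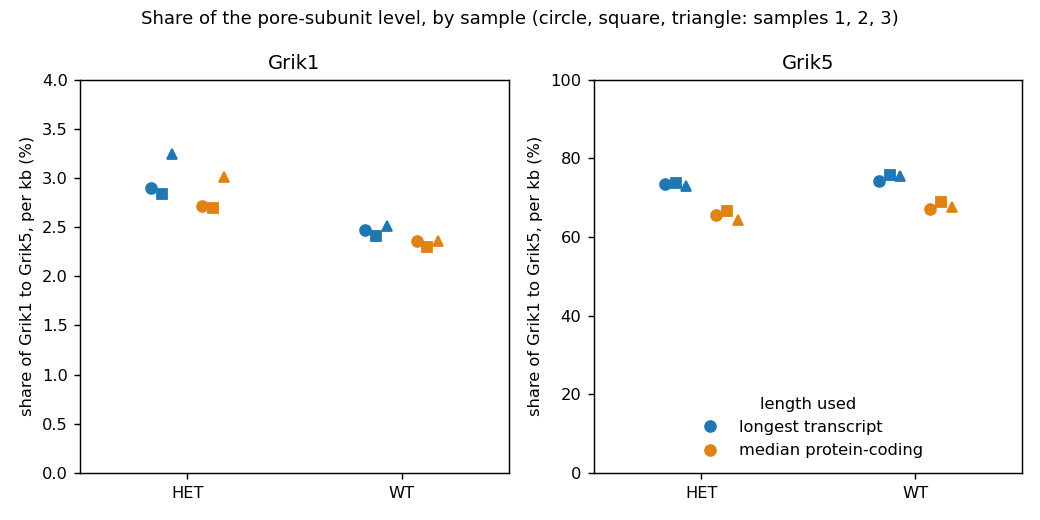
Share of Grik1 (left) and Grik5 (right) in the summed level of Grik1 to Grik5 per kilobase, in percent, for each HET and WT sample and for 2 choices of transcript length. With the longest transcript the Grik1 share is 2.84% to 3.24% in HET and 2.41% to 2.51% in WT; the Grik5 share is 72.8% to 73.8% in HET and 74.2% to 75.7% in WT.

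The ratio of Neto1 to Neto2 per kilobase, as log2, was -0.51, -0.56 and -0.50 in HET samples, against -0.42, -0.45 and -0.69 in WT samples. Both auxiliary genes together amounted to 0.179 to 0.204 of the summed pore subunit level in HET and to 0.173 to 0.224 in WT. Among all ionotropic glutamate receptor pore subunits, the kainate family took 17.7%, 17.8% and 16.6% in HET samples, against 16.7%, 18.2% and 16.8% in WT samples. All 3 of these measures overlapped between the genotypes. In the same sum the AMPA receptor genes took 39.3% to 41.2% in HET and 36.6% to 39.2% in WT. The NMDA receptor genes took 39.6% to 40.4% in HET and 41.8% to 42.7% in WT. The AMPA and NMDA ranges did not overlap, but shares of a sum depend on each other. The closest AMPA shares were 39.30% in HET sample 2 and 39.19% in WT sample 1. No AMPA receptor gene separated the genotypes by its own normalized counts. How often such shares would separate the genotypes was not tested. All these shares and ratios rest on the length used. With the median protein-coding lengths the kainate family took 10.1% to 11.4% in HET and 9.37% to 11.5% in WT. AMPA receptor genes then took 28.8% to 29.4% and 26.1% to 27.2%, and NMDA receptor genes 57.8% to 59.7% and 60.0% to 63.4%. The log2 ratio of Neto1 to Neto2 became 0.17 to 0.23 in HET and 0.034 to 0.31 in WT.

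The departures of the members from their own means were set beside those of marker lists, because the 7 genes differ in the cells that use them. Of the interneuron markers, 9 of 12 had estimates above WT, where 50.8% of all genes tested stood. Of the 12, 3 had all 3 HET samples above all 3 WT samples, as Grik1 did and as 5.15% of all genes tested did. These were Sst (log2 fold change 0.19), Slc32a1 (0.17) and Reln (0.17), which mark interneuron classes or GABA release. Pvalb and Lamp5, other class markers, were at -0.13 and -0.23. All HET samples were also above WT for 2 of 10 deep-layer, 2 of 6 meningeal and 1 of 8 upper-layer markers. All HET samples were below WT for 2 of 7 striatal, 2 of 8 upper-layer and 1 of 6 excitatory neuron markers, and for 5.30% of all genes tested. Sst had 5087, 5714 and 5264 normalized counts in HET samples, against 4733, 4631 and 4664 in WT samples. Slc32a1 had 3118 to 3618 in HET and 2866 to 3048 in WT, and Reln had 2577 to 2925 in HET and 2286 to 2570 in WT. The summed level of the 12 genes was 57588 to 59153 in HET and 55641 to 59275 in WT, and it is carried mostly by Lamp5, Gad1 and Cck, of which Lamp5 and Cck had estimates below WT. Deep-layer markers were above WT for 10 of 10 genes (summed level 10965 to 11248 in HET, 9343 to 10639 in WT), while upper-layer markers were below WT for 7 of 8 (33019 to 35935 in HET, 33934 to 38773 in WT). WT sample 3 weighs on both counts. The mean log2 departure of the deep-layer list was -0.025, 0.030 and -0.22 in WT samples 1, 2 and 3, and 0.059 to 0.078 in HET. For the upper-layer list it was 0.028, -0.011 and 0.25 in WT, and -0.16 to -0.039 in HET. Excitatory neuron markers were below WT for 4 of 6 genes (235532 to 252015 in HET, 260607 to 268999 in WT) and striatal markers for 5 of 7 (5519 to 5736 in HET, 6480 to 7143 in WT). The summed ranges of the deep-layer, excitatory and striatal lists did not overlap. Oligodendrocyte markers were below WT for 8 of 8 genes (128422 to 139838 in HET, 131742 to 184164 in WT), and precursor markers for 2 of 4 (4623 to 5047 in HET, 4936 to 5552 in WT). WT sample 2 weighs on the oligodendrocyte count. The mean log2 departure of that list was 0.34 in WT sample 2, 0.018 in WT sample 1 and -0.17 in WT sample 3. In HET samples 1, 2 and 3 it was 0.054, -0.065 and -0.18. Estimates were above WT for 7 of 8 astrocyte markers (164030 to 177053 in HET, 150688 to 178272 in WT), 5 of 6 endothelial markers (8729 to 9713 in HET, 7697 to 9330 in WT) and 6 of 6 meningeal markers (5392 to 6076 in HET, 4591 to 5591 in WT). They were also above WT for 5 of 8 microglial markers (11780 to 12504 in HET, 10592 to 13197 in WT) and 2 of 3 red blood cell markers (3534 to 3675 in HET, 3379 to 4331 in WT). No marker passed an adjusted p of 0.05 in any list. The part of these lists in the Grik1 and Grik2 values was not tested.

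**Figure D5:**
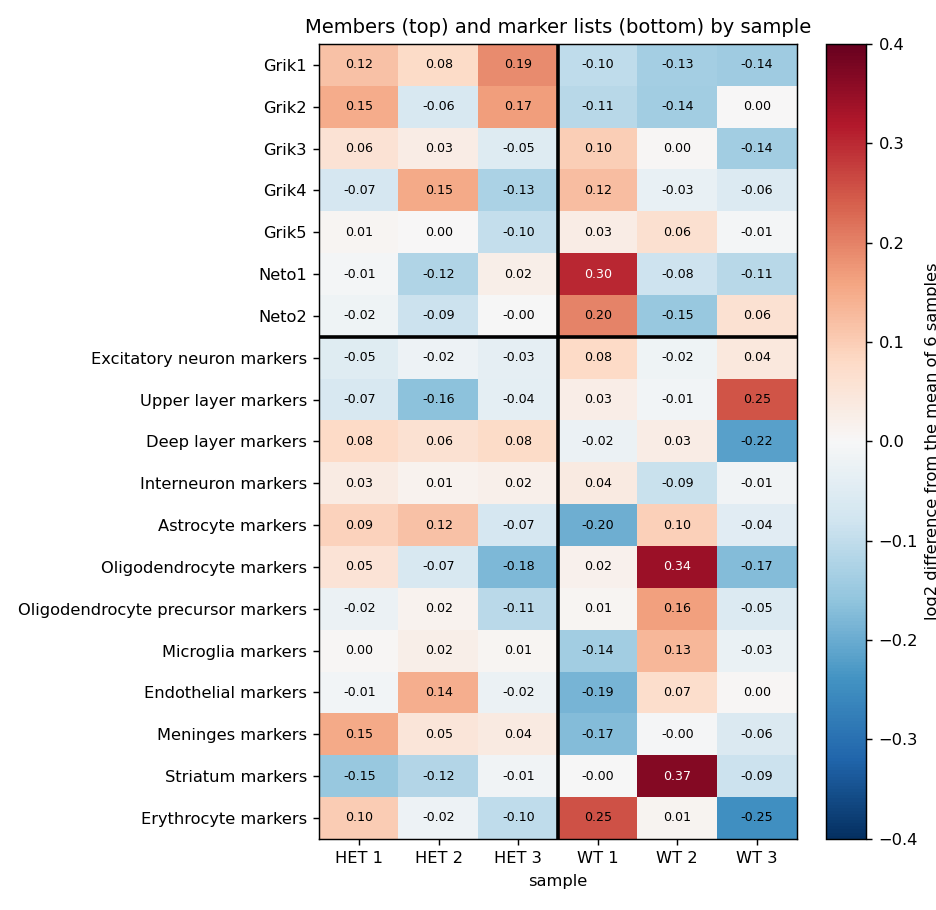
Log2 difference of each sample from the mean of all 6 samples, for the 7 members (above the line) and as the mean over each marker list (below the line); HET samples stand left of WT samples. Grik1 is positive in all HET and negative in all WT samples, Neto1 and Neto2 are highest in WT sample 1, and WT sample 2 stands out in oligodendrocyte and striatal markers.

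Genes that assemble, anchor, modify or regulate kainate receptors were next, from a list of 28 partners, of which 27 were tested and Klhl17 was not analysed here. None passed an adjusted p of 0.05. Of the 27, 15 had estimates above and 12 below WT, with a median log2 fold change of 0.01, against 0.002 over all genes. An unadjusted p under 0.05 was found for 3 of the 27, where 5.07% of all genes tested stood, and C1ql3 and Dlg4 were among them. C1ql3, whose secreted product helps to recruit kainate receptors at mouse hippocampal mossy fibre synapses, had 2592, 2469 and 2734 normalized counts in HET samples, against 2536, 2036 and 2234 in WT samples. Its log2 fold change was 0.20 ± 0.08 (SE; adjusted p = 0.95 by limma-trend), and HET sample 2 lay below WT sample 1. Dlg4, the gene of the scaffold PSD-95, averaged 30150 ± 876 in HET and 32539 ± 396 in WT (SD, n = 3 each), a log2 fold change of -0.11 ± 0.05 (SE; adjusted p = 0.95 by limma-trend).

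All 3 HET samples lay below all 3 WT samples for 3 of the 27 partners and for 5.30% of all genes tested. Dlg4 and Snap25, the gene of a vesicle fusion protein, were among these partners. No partner had all HET samples above WT, which was so for 5.15% of all genes tested. Adarb1, the gene of a deaminase known to recode Q/R codons, averaged 11015 ± 389 in HET and 11446 ± 375 in WT (SD, n = 3 each), and its log2 fold change was -0.06 with a 95% interval of -0.17 to 0.06. Adar, a related deaminase, was at 0.01 with an interval of -0.11 to 0.14.

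In the other ionotropic glutamate receptors, all 13 AMPA, NMDA and delta receptor genes were tested and none passed an adjusted p of 0.05 or an unadjusted p of 0.05. Estimates were above WT for 8 and below for 5, with a median log2 fold change of 0.02. Grin1, the obligatory NMDA receptor subunit, averaged 23235 ± 726 in HET and 24995 ± 330 in WT (SD, n = 3 each), a log2 fold change of -0.11 ± 0.05 (SE; unadjusted p = 0.051, adjusted p = 0.95 by limma-trend). Grin2d, an NMDA subunit found in interneurons of the adult cortex, had 576.8, 640.4 and 589.1 normalized counts in HET samples, against 549.9, 540 and 548.2 in WT samples, with a log2 fold change of 0.14 ± 0.08 (SE; adjusted p = 0.95 by limma-trend). Grin3a was at 0.12 ± 0.07 (SE). All HET samples lay below WT for 1 of the 13, Grin1, and for 5.30% of all genes tested. They lay above WT for 2 of the 13, Grin2d among them, and for 5.15% of all genes tested.

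The genes whose pattern over the 6 samples was most like each member were found among 12383 tested genes with a mean of at least 100. With 6 samples and so many genes, high correlations are common, and the values are descriptive. Grik1 was followed most closely by Fam76a (Pearson r = 0.994) and Arxes2 (0.985), and 86 genes had an r above 0.9 with it. Grik2 was followed by Sult2b1 (0.993) and Gm8797 (0.985). Grik3 was followed by Fam214a (0.993) and Krt80 (0.987), Grik4 by Slc25a30 (0.99) and the pseudogene Pisd-ps2 (0.981), and Grik5 by Arhgef25 (0.996) and March11 (0.983). Neto1 was followed by Sesn3 (0.995) and Morn2 (0.99), and Neto2 by Zfp770 (0.995) and Slc2a13 (0.99). Genes with an r above 0.9 were most frequent for Neto2 (288) and Neto1 (127) and least frequent for Grik4 (33). All 6 samples enter each r, the genotype difference included.

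On GRCm38 the members lie apart from each other and from Cyfip2. Grik1 spans 394 kb on chromosome 16 (87895900 to 88290265, minus strand), Grik2 694 kb on chromosome 10 (49094833 to 49788766, minus strand) and Grik3 223 kb on chromosome 4 (125490700 to 125714173, plus strand). Grik4 spans 426 kb on chromosome 9 (42518135 to 42944493, minus strand), and Grik5 is the shortest pore gene with 62.5 kb on chromosome 7 (25009849 to 25072346, minus strand). Neto1 lies on chromosome 18 (86394952 to 86506718, plus strand) and Neto2 on chromosome 8 (85636588 to 85700924, minus strand). Cyfip2 itself is on chromosome 11. Of the genes annotated as overlapping a member, none was of the protein-coding type, and the only one in the deposited table was Ftl2-ps within Grik3, at a mean of 4.93 normalized counts.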

How the data were processed

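Libraries were made with a strand-specific, poly(A)-selecting kit, per the labels' protocols. Per the submitters' processing notes, the tools were Salmon 0.11.2, R 3.6.0 and DESeq2 1.19.11, and the build GRCm38, with no role stated for any. Their annotation and gene filter were not given in the sources used here. What the authors deposited is a signal, called normalized counts here and read from the values to be estimates of reads divided by factors that differ between samples and genes. Taking the most common step between low values as 1 read, 77.4% to 84.6% of values near 1 or 2 reads were whole within 0.1 reads, but only 21.2% to 42.3% of values of 10 to 20 reads, so whole reads were not recovered and no count model was used.

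A pseudocount of 1 was added before taking log2, and limma-trend (limma 3.58.1, R 4.3.3) was fitted with genotype as the only term to the 15151 genes with a mean of at least 10. The p-values were adjusted by Benjamini-Hochberg over all of them, with a threshold of 0.05. On this log2(value + 1) scale the changes of low genes come out too small. Symbols came from GENCODE M21, which matched 18122 of 18160 identifiers; positions, transcript lengths and sequences are from the same release on GRCm38. No pair of samples of a genotype agreed within counting noise (median chi-square per gene 1.83 to 4.16 over 13312 genes).

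Members and lists were chosen with earlier results of these data known. Named genes are the members, Cyfip2, the 3 genes of smallest p in each other list and the 2 genes most correlated with each member. Sst, Slc32a1, Reln, Pvalb, Lamp5, Gad1, Cck, Snap25, Adarb1, Adar and Ftl2-ps were named after their values were seen. Some genes that the rule or a count would name are not reported here. Alternatives were another scaling, variance model, filter, pseudocount and threshold, the sample number as a block, and each sample left out.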

Additional observations from a re-analysis of the deposited data

How the results depend on the processing

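No member passed the threshold under any of the 15 alternatives. Of the 42 member values with a sample left out, 7 reversed; most other alternatives leave the fold change as it is by construction and say nothing of its direction. With each sample left out in turn, log2 fold changes lay between 0.22 and 0.28 for Grik1, 0.13 and 0.24 for Grik2, -0.041 and 0.079 for Grik3, -0.11 and 0.030 for Grik4, -0.076 and -0.023 for Grik5, -0.15 and 0.061 for Neto1, and -0.16 and 0.010 for Neto2. The adjusted p of Grik1 lay between 0.49 and 1.00 over all alternatives. The number of genes past the threshold was 1 by limma without the trend and 1 with a mean of at least 50, against 2, and between 1 and 4 with a sample left out (1 without HET sample 1, 4 without HET sample 3 and 4 without WT sample 1). Cyfip2 missed the threshold by limma without the trend (adjusted p = 0.15). The sample number pairs no samples by the labels. Same-numbered samples had correlations of deviations of 0.13, 0.12 and -0.0052, and differently numbered ones between -0.16 and 0.046. Whether the number stands for something shared was not tested. With it as a replicate block, which cannot move a balanced fold change, 2 genes passed. The limma-trend p was then 0.022 for Grik1 (log2 fold change 0.25, adjusted p = 0.49) and 0.018 for Grik2 (adjusted p = 0.47), against 0.016 and 0.055 without the block. With the median protein-coding length, 3 of the 7 members kept their place in the order of levels per kilobase; leaving out a sample moved none of them. Depth limits Grik1 most, with about 207 reads in its lowest sample and a counting error of 6.96%.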
